A study of Homo sapiens with 6 samples.

Results

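The replication-dependent histone genes were taken as the rows of the count table whose symbol begins with HIST1H, HIST2H, HIST3H or HIST4H. This rule found 89 of 35238 symbols. GENCODE release 29 annotates 71 of them as protein coding and 18 as pseudogenes, and 58 of the 89 (52 coding, 6 pseudogene rows) passed the expression filter and were tested. The libraries came from HAP1, an established near-haploid human cell line, with 3 libraries of untreated DEGS1 knockout cells and 3 of untreated wildtype cells. DEGS1 encodes the desaturase that makes ceramide out of dihydroceramide. Both genotypes were kept in medium with 5% serum, split 3 times a week and collected 24 h after a passage, and the series asks what loss of DEGS1 does to the cells. The labels do not say how many knockout clones were used or whether replicates were separate cultures, so a p-value here speaks of the scatter among 6 libraries, part of which may be technical.

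Replication-dependent histone genes supply the H1 linker histone and the core histones H2A, H2B, H3 and H4 that package newly made DNA, and they are transcribed mainly in S phase. Most of their mRNAs have no introns and no poly(A) tail. They end instead in a conserved stem-loop, which SLBP binds and which the U7 snRNP machinery uses to cut the transcript. The genes sit in a large cluster on chromosome 6 (HIST1), in smaller clusters on chromosome 1 (HIST2 and HIST3) and at a single gene on chromosome 12 (HIST4H4). A library from total RNA, as used here, can hold such untailed mRNAs.

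The stem-loop is the element that most of these mRNAs share, and it is shown because it sets this class of mRNA apart from polyadenylated mRNAs. GENCODE 29 transcripts were searched for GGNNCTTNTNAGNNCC on the sense strand. A match was found in 32 of 71 coding members, against 150 of 57044 other gene names (0.263%). Of the 39 coding members without a match, 29 had no annotated transcript of 420 nt or longer, so the searched sequence held little beyond the coding part. The 6 H1 genes had no match either. Each has 1 annotated transcript, of 642 to 754 nt, and a longer RefSeq gene span, of 724 to 797 nt. The ends of these mRNAs may therefore lie outside the searched sequence. No match says only that these letters are not in the annotated transcript. The lines below give the stem-loop in capitals with up to 5 bases before and 9 bases after it, written 5′ to 3′ with T for U.
HIST1H2BE: ccaaaGGCTCTTTTCAGAGCCactcacctt
HIST1H2BG: tcaaaGGCTCTTTTCAGAGCCactcaagtc
HIST1H2BH: ccaaaGGCTCTTTTCAGAGCCacttaatga
HIST1H2BD: ccaaaGGCTCTTTTAAGAGCCacgcatgtt
HIST1H3E: ccaaaGGCTCTTCTCAGAGCCaaccacttt
HIST1H2AG: ccaacGGCTCTTTTCAGGGCCacccacgtc
HIST1H4E: tcaaaGGCCCTTTTCAGGGCCgcccacagt
HIST2H4A: ccaaaGGCCCTTTTTAGGGCCgaccacttg
The commonest of the 6 forms, carried by 17 coding members, is the one of HIST1H2BE, which fell in the knockout, of HIST1H2BG and of HIST1H2BH, which had almost no counts. Relative to it, and counting from 1 at the first capital, HIST1H2BD has C10A, HIST1H3E has T8C and HIST1H2AG has A13G. The H4 gene HIST1H4E has T4C and A13G, at positions that face each other in the stem. HIST2H4A has T4C, C10T and A13G. The 8 H4 members with a match all carried one of these last 2 forms, and no member of another class did. A match was present in 27 of 48 coding members at 10 CPM or more and in 5 of 23 below that level, the split used throughout.

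Promoters of 66 coding members were matched in RefSeq (GRCh38.p14) and searched on both strands, over a window of 250 bases before to 50 bases after the annotated start. The motifs were the TATA box in the form TATAAA, the CCAAT box in the form of its name, the octamer ATTTGCAT found in H2B promoters, and the box of H1 promoters in the form AAACACA. No motif contains another, and a promoter counts once however many matches it holds. HIST1H2BE is shown as the member that fell, at chr6:26183511-26183810 on the plus strand. HIST1H2BG is an H2B gene of the same stretch, at chr6:26216639-26216938 on the minus strand. HIST1H1E had the smallest p among H1 genes and lies at chr6:26156079-26156378 on the plus strand. HIST1H1B is an H1 gene with no count, at chr6:27867539-27867838 on the minus strand. Capitals mark matches to any of the 4 motifs on either strand.
HIST1H2BE: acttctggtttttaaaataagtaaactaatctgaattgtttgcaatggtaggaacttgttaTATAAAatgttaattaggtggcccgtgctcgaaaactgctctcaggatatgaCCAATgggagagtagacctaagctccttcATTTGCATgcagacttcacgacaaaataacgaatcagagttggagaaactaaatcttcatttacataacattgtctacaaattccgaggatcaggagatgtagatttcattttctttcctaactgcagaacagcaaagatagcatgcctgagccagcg
HIST1H2BG: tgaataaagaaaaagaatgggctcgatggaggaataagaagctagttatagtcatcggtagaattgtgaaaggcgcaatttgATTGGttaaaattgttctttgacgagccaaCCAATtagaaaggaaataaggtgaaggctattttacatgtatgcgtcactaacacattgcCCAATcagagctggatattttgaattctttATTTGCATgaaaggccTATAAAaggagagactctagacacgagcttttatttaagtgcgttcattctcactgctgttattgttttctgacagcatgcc
HIST1H1E: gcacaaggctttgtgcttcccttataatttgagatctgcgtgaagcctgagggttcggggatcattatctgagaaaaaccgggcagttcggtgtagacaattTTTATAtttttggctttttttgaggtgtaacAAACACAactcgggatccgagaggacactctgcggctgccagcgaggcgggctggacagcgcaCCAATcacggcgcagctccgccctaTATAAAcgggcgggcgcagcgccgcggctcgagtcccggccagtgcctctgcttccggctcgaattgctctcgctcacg
HIST1H1B: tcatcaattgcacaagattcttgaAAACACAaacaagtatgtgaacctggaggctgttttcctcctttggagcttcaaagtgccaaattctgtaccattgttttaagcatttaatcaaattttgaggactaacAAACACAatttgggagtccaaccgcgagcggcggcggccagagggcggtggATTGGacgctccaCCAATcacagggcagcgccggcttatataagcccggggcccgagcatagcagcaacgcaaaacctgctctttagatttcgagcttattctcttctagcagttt
TATAAA was present in 66.7% of the 66 members and in 12% of all 27305 promoters, CCAAT in 84.8% and 35.7%, the octamer in 39.4% and 1.8%, and the H1 box in 13.6% and 5.76%. The H1 box was in 6 of 6 H1 promoters. The octamer was in 14 of 18 H2B and 11 of 16 H2A promoters, in 1 of 13 H3 promoters and in no H1 or H4 promoter. Windows of some H2A and H2B genes on opposite strands overlap, as for HIST1H2AC and HIST1H2BC, so the same octamer can count in both classes. The H3 promoter with an octamer, that of HIST1H3D, has the same window as the H2A gene HIST1H2AD. CCAAT was in each H1, H2A, H2B and H3 promoter and in 3 of 13 H4 promoters. The octamer starts 48 bases before the annotated start in HIST1H2BG and 108 bases before it in HIST1H2BE, and TATAAA starts 32 and 189 bases before it in these genes. HIST1H1E and the silent HIST1H1B both hold an H1 box that begins 117 bases before the start. The shares in expressed and near-silent members stood near each other. TATAAA was in 64.4% of the 45 members at 10 CPM or more and in 71.4% of the 21 below it, CCAAT in 82.2% and 90.5%, the octamer in 42.2% and 33.3%, and the H1 box in 13.3% and 14.3%. These matches are descriptions of the printed windows only.

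The libraries held 19389644, 27604956 and 27659835 counts in DEGS1 knockout replicates 1 to 3, and 24170525, 28988522 and 17322756 in wildtype replicates 1 to 3. CPM are counts scaled to a common library size. A floor of 3 counts equals 0.109 to 0.161 CPM per library. DEGS1 was at 9.49, 6.88 and 10.4 CPM in the knockout, against 105, 123 and 95.5 CPM in wildtype (log2 fold change -3.59, SE 0.17, adjusted p = 3.07e-07 in edgeR). Of 16 blood cell markers, for a line derived from a myeloid leukaemia, 8 were tested, and SPI1, CD3E, HBG1 and MPO had no count in any library. The summed level of the 16 was 85.4 to 92.1 CPM in the knockout and 65.5 to 79.8 CPM in wildtype. TAL1 made up most of the knockout sum, at 53.1, 64.1 and 61.7 CPM, against 29.6, 24.8 and 32.7 CPM in wildtype. Of the 8 tested markers, 3 were positive and 5 negative, with a median log2 fold change of -0.40. The higher sum therefore does not describe the list as a set. TAL1 rose (log2 fold change 1.04, SE 0.13, adjusted p = 5.63e-04 in edgeR), and RUNX1 (-1.43, SE 0.26, adjusted p = 0.00739 in edgeR) and KIT (-1.01, SE 0.22, adjusted p = 0.023 in edgeR) fell. KIT lost its call without wildtype replicate 1 (adjusted p = 0.0715 in edgeR), DEGS1 knockout replicate 1 (0.111) or DEGS1 knockout replicate 3 (0.133). Wildtype replicate 2 stood apart: when it was left out, edgeR called 1835 genes higher and 1990 lower, against 256 and 500 with all 6 libraries. DEGS1 knockout replicate 1 was the highest of the 6 libraries for 40 of the 58 tested members. The share over all genes was not worked out, so this is not read as particular to histone genes. Libraries of the same replicate number carry the same suffix in their labels, whose meaning is not given. Values for counts of members and for sums are therefore also given without these libraries and within each number. The numbers were not taken as pairs, and values within a number are descriptions only.

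Histone transcripts as a whole took a slightly larger share of the knockout libraries, but 1 of 58 tested genes passed the test, and it was lower. The 89 rows held 1.27%, 1.09% and 1.00% of all counts in the knockout, against 0.988%, 0.9002% and 0.995% in wildtype. Their summed level was 12630, 11497 and 10105 CPM in the knockout, against 9387, 9692 and 9231 CPM in wildtype, a ratio of means of 1.21 with no overlap between the genotypes. In these bulk libraries a different share of cells in S phase and a different amount of histone mRNA per cell cannot be told apart.

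At an edgeR adjusted p under 0.05, 0 of 58 members were called higher and 1 was called lower, beside 1.51% of all 16954 tested genes called higher and 2.95% called lower. At an unadjusted p under 0.05 in edgeR, 19 members were higher, all in HIST1, and 4 were lower, beside 6.69% and 9.81% of all genes. DESeq2 called 3 members higher (HIST1H1C, HIST1H1D and HIST1H1E), beside 2.27% of all genes. All knockout libraries lay above all wildtype libraries for 20 members and below them for 3, beside 9.24% and 11.6% of all genes. At each of the 3 replicate numbers the knockout library lay above the wildtype library of that number for 30 members and below it for 6, beside 20.9% and 21.9% of all genes. The log2 fold change was positive in 48 of 58 members with a median of 0.23, whereas over all tested genes 47.3% were positive and the median was -0.02.

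The median was positive under each alternative run, and the number of calls varied with the libraries used. Without wildtype replicate 2, 15 members were called higher, all in HIST1, and HIST1H2BE and HIST1H3E were called lower, beside 10.6% and 11.5% of all genes in that fit. Without both wildtype replicate 2 and DEGS1 knockout replicate 1, an alternative chosen after seeing the data, 9 were called higher and 4 lower, beside 12.8% and 11.8% of all genes. Without DEGS1 knockout replicate 1 alone, 40 of 58 members were positive, the median was 0.17 and no member was called higher.

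**Figure D1:**
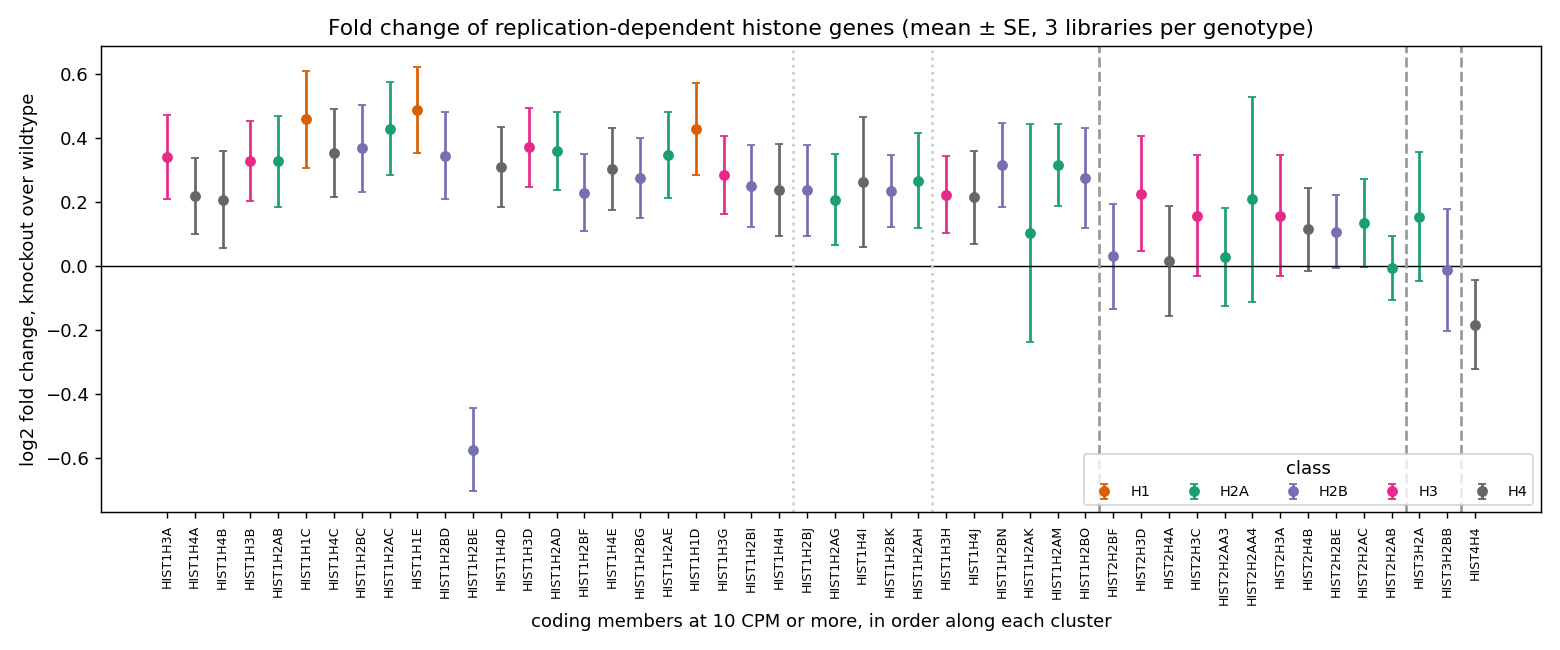
Log2 fold change, DEGS1 knockout over wildtype, of the 48 coding members at a mean of 10 CPM or more, in gene order within HIST1, HIST2, HIST3 and HIST4 (dashed lines) and within 3 stretches of HIST1 (dotted lines). Points are edgeR estimates with SE from 3 libraries per genotype, and HIST1H2BE at -0.57 stands alone below 0 in HIST1, where 33 of 34 members are positive.

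The H1 linker histone genes had the highest ratio of summed levels among the 5 classes, all rows of a class included. All H1 rows lie in HIST1, whereas each core class also holds HIST2 members, so this ranking mixes class with cluster. Within HIST1, the median log2 fold change of coding members at 10 CPM or more was 0.46 for H1. It was 0.32 for H2A, 0.26 for H2B, 0.33 for H3 and 0.25 for H4. H1 proteins bind the DNA between nucleosomes. The class summed to 2396, 2437 and 2137 CPM in the knockout, against 1636, 1879 and 1536 CPM in wildtype, and the genotypes did not overlap. The means were 2324 ± 163 CPM in the knockout and 1684 ± 177 CPM in wildtype (SD, n = 3 each), a ratio of 1.38. Within replicate numbers 1, 2 and 3 the log2 difference of the sums was 0.55, 0.38 and 0.48. The log2 ratio of means was 0.46 without DEGS1 knockout replicate 1 and 0.56 without wildtype replicate 2.

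HIST1H1C, which encodes H1.2, was at 1072, 1106 and 957 CPM in the knockout, against 721, 880 and 680 CPM in wildtype. The lowest knockout library was above the highest wildtype library, and the log2 fold change was 0.46 (SE 0.15, adjusted p = 0.138 in edgeR). HIST1H1E, which encodes H1.4, was at 922, 917 and 830 CPM in the knockout, against 631, 667 and 605 CPM in wildtype. Its log2 fold change of 0.49 (SE 0.13) missed the threshold in edgeR (adjusted p = 0.0683). HIST1H1D, which encodes H1.3, was at 399, 410 and 344 CPM in the knockout, against 281, 329 and 247 CPM in wildtype, again without overlap (0.43, SE 0.14, adjusted p = 0.143 in edgeR).

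None of the 3 passed in edgeR with TMM scaling, the expression filter and genotype only over all 6 libraries. With the replicate number as a block, HIST1H1D and HIST1H1E passed in edgeR, though the numbers were not taken as pairs. Without both DEGS1 knockout replicate 1 and wildtype replicate 2, chosen after seeing the data, edgeR called all 3. HIST1H1E passed in edgeR with upper-quartile scaling (adjusted p = 0.0248), library size only (0.0214) or the 1 CPM filter (0.0472), and HIST1H1C with library size only (0.0346). All 3 passed with the DESeq2 Wald test (adjusted p of 0.0165 for HIST1H1C, 0.0415 for HIST1H1D and 8.31e-04 for HIST1H1E). They also passed in edgeR without wildtype replicate 2 (adjusted p of 0.00207 for HIST1H1C, 0.00438 for HIST1H1D and 0.0029 for HIST1H1E). HIST1H1T, the testis H1, was at 2.21, 3.14 and 2.37 CPM in the knockout, against 2.08, 2.86 and 1.61 CPM in wildtype, and the genotypes overlapped. HIST1H1A averaged 0.150 CPM in the knockout and 0.168 CPM in wildtype and was not tested. HIST1H1B had no count in any library, which allows up to 0.109 to 0.161 CPM.

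The core histone classes summed to ratios between 1.16 and 1.20, and overlap differed between them. H3 summed to 1794, 1507 and 1390 CPM in the knockout, against 1306, 1249 and 1342 CPM in wildtype, a ratio of 1.20. H4 summed to 3021, 2881 and 2607 CPM in the knockout, against 2420, 2586 and 2295 CPM in wildtype, a ratio of 1.17. For both, each knockout library was above each wildtype library. H2A summed to 2603, 2170 and 1842 CPM in the knockout, against 1893, 1831 and 1940 CPM in wildtype (ratio 1.17), and DEGS1 knockout replicate 3 fell inside the wildtype range. H2B summed to 2816, 2500 and 2129 CPM in the knockout, against 2132, 2146 and 2118 CPM in wildtype (ratio 1.16), with the same library inside the wildtype range. The knockout libraries were spread more widely than the wildtype libraries for H2A and H2B, with an SD of 382 against 54.3 CPM for H2A and 344 against 13.7 CPM for H2B.

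Within replicate numbers 1, 2 and 3 the log2 difference of the sums was 0.46, 0.25 and -0.07 for H2A, and 0.40, 0.22 and 0.01 for H2B. It was 0.46, 0.27 and 0.05 for H3, and 0.32, 0.16 and 0.18 for H4. With all libraries the log2 ratio of means was 0.22 for H2A, 0.22 for H2B, 0.27 for H3 and 0.22 for H4. Without DEGS1 knockout replicate 1 it was 0.10 for H2A, 0.14 for H2B, 0.17 for H3 and 0.19 for H4. Without wildtype replicate 2 it was 0.21 for H2A, 0.23 for H2B, 0.25 for H3 and 0.27 for H4.

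The ratio of the H1 sum to the H4 sum was 0.793, 0.846 and 0.820 in the knockout, against 0.676, 0.727 and 0.669 in wildtype, without overlap. The ratio of the H1 sum to the H2B sum was 0.851, 0.975 and 1.00 in the knockout, against 0.767, 0.876 and 0.725 in wildtype, and it overlapped. The ratio of H2A to H2B was 0.925, 0.868 and 0.865 in the knockout, against 0.888, 0.853 and 0.916 in wildtype, and the ratio of H3 to H4 also overlapped. These ratios were not tested, and those with H1 also set HIST1 rows against classes that include HIST2 rows.

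**Figure D2:**
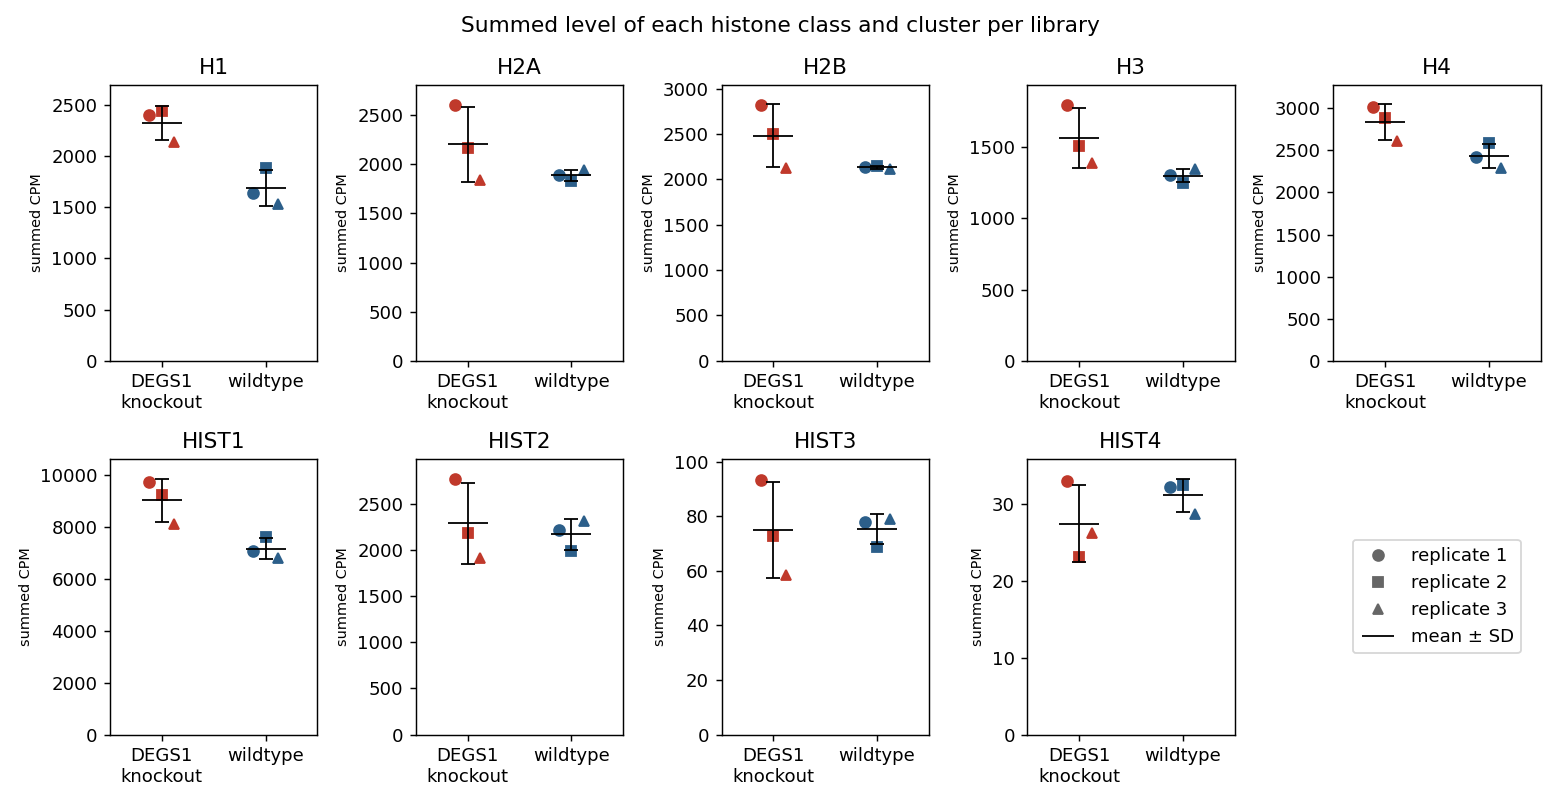
Summed CPM of all members of each histone class (top row) and cluster (bottom row) in each library, DEGS1 knockout left of wildtype, with symbols for replicates 1 to 3 and bars for the mean ± SD. The H1, H3, H4 and HIST1 panels show no overlap between genotypes, and in the HIST2 panel DEGS1 knockout replicate 1 (2765 CPM) lies above and replicate 3 (1909 CPM) below all wildtype libraries.

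In H2A, H3 and H4 the gene with the smallest p lay in HIST1 and had separated groups without passing the test over all 6 libraries. In H2B it was HIST1H2BE, given below, which passed and was lower. For H2A it was HIST1H2AC, a gene that also makes a polyadenylated transcript, at 281, 220 and 192 CPM in the knockout, against 170, 173 and 172 CPM in wildtype (log2 fold change 0.43, SE 0.15, adjusted p = 0.146 in edgeR). For H3 it was HIST1H3D, at 68.6, 72.8 and 54.7 CPM in the knockout, against 50.9, 53.5 and 47.2 CPM in wildtype (0.37, SE 0.12, adjusted p = 0.14 in edgeR). For H4 it was HIST1H4C, at 481, 521 and 485 CPM in the knockout, against 387, 436 and 341 CPM in wildtype (0.35, SE 0.14, adjusted p = 0.21 in edgeR). All knockout libraries lay above all wildtype libraries for these 3 genes, which were picked by their p, so this separation is not read further. With wildtype replicate 2 left out, HIST1H3D (adjusted p = 0.0281 in edgeR) and HIST1H4C (0.00842) passed. HIST1H3D was also called in edgeR over all 6 libraries with the replicate number as a block.

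Other abundant H2A, H3 and H4 genes of HIST1 also had positive estimates. HIST1H3B was at 512, 507 and 467 CPM in the knockout, against 397, 410 and 377 CPM in wildtype (log2 fold change 0.33, SE 0.13). HIST1H4E was at 443, 428 and 409 CPM in the knockout, against 326, 381 and 331 CPM in wildtype (0.30, SE 0.13). HIST1H3G was at 371, 326 and 319 CPM in the knockout, against 272, 284 and 278 CPM in wildtype (0.29, SE 0.12). The groups of these 3 did not overlap, and their edgeR adjusted p lay between 0.206 and 0.268. HIST1H2AG, at 361, 306 and 258 CPM in the knockout, against 262, 257 and 282 CPM in wildtype, and HIST1H2AH, at 322, 262 and 225 CPM in the knockout, against 220, 209 and 243 CPM in wildtype, did overlap, with knockout replicate 1 above all others.

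HIST1H2BE, an H2B gene in the first stretch of HIST1, was the single member that passed the test, and it fell. It stood at 21.3, 18.5 and 16.3 CPM in the knockout, against 27.1, 27.3 and 29.03 CPM in wildtype. Every knockout library was below every wildtype library. The means were 18.7 ± 2.53 CPM in the knockout and 27.8 ± 1.06 CPM in wildtype (SD, n = 3 each), with a log2 fold change of -0.57 (SE 0.13, adjusted p = 0.028 in edgeR).

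Genes around HIST1H2BE had positive estimates. HIST1H2BD, which precedes it, was at 335, 313 and 251 CPM in the knockout, against 228, 237 and 242 CPM in wildtype (0.35, SE 0.14, adjusted p = 0.219 in edgeR). HIST1H4D, which follows it, was at 273, 297 and 260 CPM in the knockout, against 224, 242 and 204 CPM in wildtype (0.31, SE 0.12, adjusted p = 0.228 in edgeR). HIST1H2BG was at 339, 318 and 293 CPM in the knockout, against 265, 278 and 242 CPM in wildtype (0.28, SE 0.12, adjusted p = 0.296 in edgeR). None of these neighbours passed the test, and all 3 had groups that did not overlap.

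The call on HIST1H2BE was lost without wildtype replicate 1 (adjusted p = 0.0924 in edgeR), wildtype replicate 3 (0.0742), DEGS1 knockout replicate 2 (0.0816) or DEGS1 knockout replicate 3 (0.172), and it was lower in the knockout in each of those fits. It held without wildtype replicate 2 (adjusted p = 0.00884 in edgeR) or DEGS1 knockout replicate 1 (0.0336). GENCODE 29 gives HIST1H2BE a span of 12597 nt that overlaps AL353759.1 on the opposite strand. Whether the counting used strand is not given, so reads of this pair cannot be told apart. The same holds for HIST1H2BD, which overlaps AL353759.1 too, and in all for 10 of the 48 coding members at 10 CPM or more, HIST2H4A and HIST2H2BF among them, that overlap a gene on the opposite strand.

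**Figure D3:**
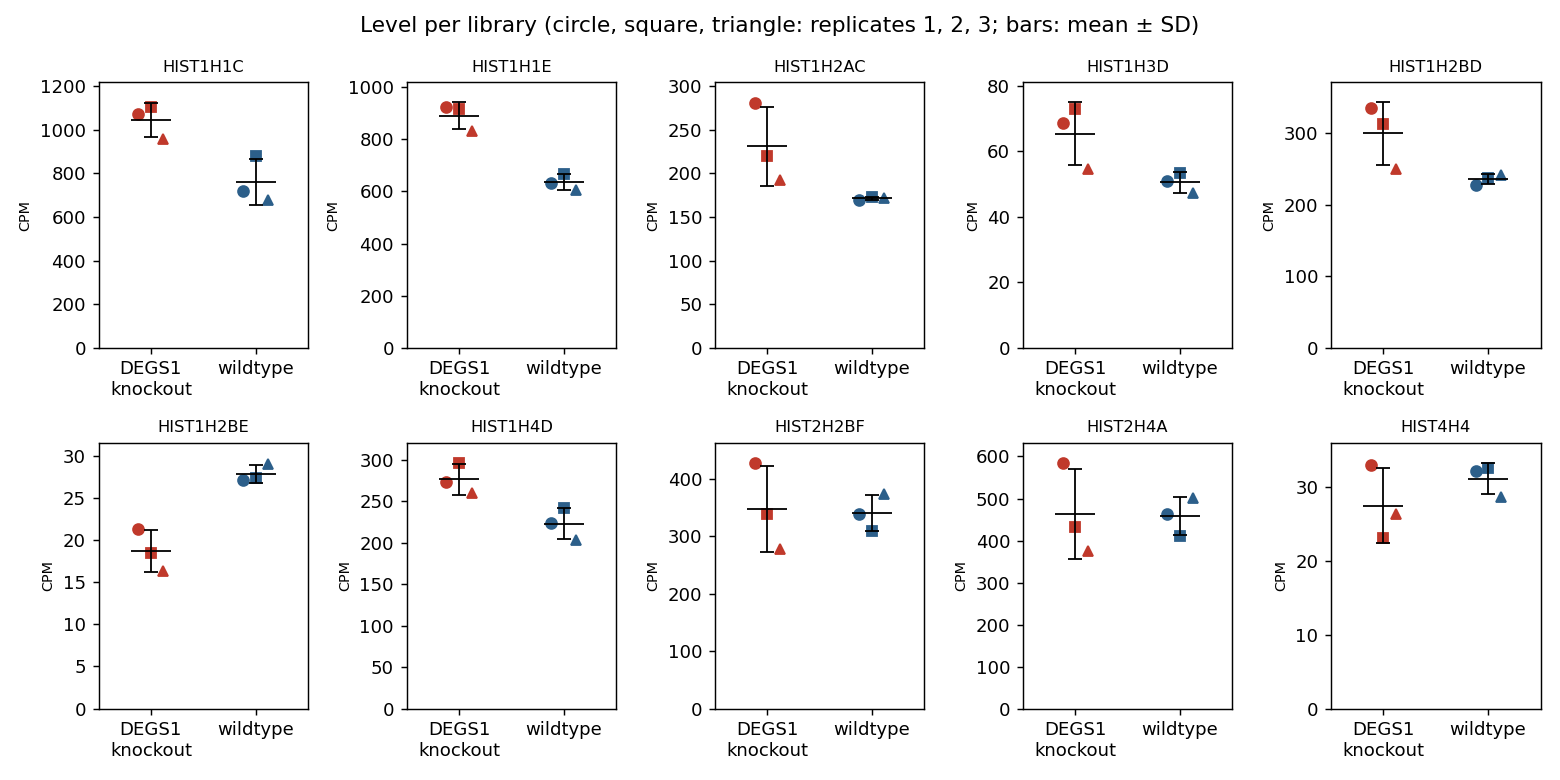
CPM in each library for 10 members, DEGS1 knockout left of wildtype, with symbols for replicates 1 to 3 and bars for the mean ± SD. HIST1H2BE is below wildtype in each knockout library, its neighbours HIST1H2BD and HIST1H4D are above wildtype in each, and HIST2H2BF and HIST2H4A overlap.

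By summed level the genotypes separated in the HIST1 cluster and overlapped in the HIST2 cluster. HIST1 members summed to 9739, 9220 and 8112 CPM in the knockout, against 7067, 7609 and 6815 CPM in wildtype, a ratio of 1.26 without overlap. HIST2 members summed to 2765, 2181 and 1909 CPM in the knockout, against 2210, 1982 and 2308 CPM in wildtype, a ratio of 1.05 with overlap. Within replicate numbers 1, 2 and 3 the log2 difference of the sums was 0.46, 0.28 and 0.25 for HIST1, and 0.32, 0.14 and -0.27 for HIST2. The ratio of the HIST1 sum to the HIST2 sum was 3.52, 4.23 and 4.25 in the knockout, against 3.20, 3.84 and 2.95 in wildtype, so this ratio itself overlapped, and the difference between the clusters was not tested.

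Among coding members at 10 CPM or more, 33 of 34 in HIST1 had a positive log2 fold change with a median of 0.29, and 19 of the 34 had all knockout above all wildtype libraries, beside 9.24% of all genes. In HIST2, 10 of 11 were positive with a median of 0.11, and all 11 overlapped. The HIST1 median exceeded the HIST2 median in each class with members in both, at 0.32 and 0.08 for H2A, 0.26 and 0.07 for H2B, 0.33 and 0.16 for H3, and 0.25 and 0.07 for H4. These HIST2 medians rest on only 4 H2A, 2 H2B, 3 H3 and 2 H4 members. The H3 value is that of HIST2H3A and HIST2H3C, whose counts were identical. With duplicated HIST2 copies summed, 7 HIST2 members remained, of which 6 were positive, with a median of 0.06. The HIST2 median rested on DEGS1 knockout replicate 1: without it the median was -0.07 with 4 of 11 positive, whereas the HIST1 median was 0.23 with 31 of 34 positive. The median shift over all expressed genes of a chromosome, knockout minus wildtype, was 0.07 on chromosome 6 and -0.03 on chromosome 1. With these chromosome medians removed, the medians were 0.23 for HIST1 and 0.15 for HIST2.

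Along HIST1 the members, pseudogene rows included, fall into 3 stretches separated by more than 200 kb. The first holds 34 coding members, 23 of them at 10 CPM or more, with a median log2 fold change of 0.33 and 17 separated upward, beside 9.24% of all genes. The second holds 5, all at 10 CPM or more, with a median of 0.24 and 1 separated upward (HIST1H2BK). The third holds 16, of which 6 are at 10 CPM or more, with a median of 0.25 and 1 separated upward. All 3 expressed H1 genes lie in the first stretch.

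The most abundant HIST2 genes had estimates near 0. HIST2H4A, an H4 gene, was at 583, 433 and 374 CPM in the knockout, against 462, 411 and 502 CPM in wildtype (log2 fold change 0.02, SE 0.17, adjusted p = 0.974 in edgeR). HIST2H2AA3, an H2A gene, was at 469, 406 and 321 CPM in the knockout, against 399, 366 and 408 CPM in wildtype (0.03, SE 0.15). HIST2H2BF, an H2B gene, was at 427, 338 and 277 CPM in the knockout, against 339, 309 and 373 CPM in wildtype (0.03, SE 0.16). For each of these 3, the knockout libraries spanned the wildtype range, with replicate 1 highest and replicate 3 lowest.

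HIST2H2AC (0.13, SE 0.14), HIST2H2BE (0.11, SE 0.11) and HIST2H2AB (-0.01, SE 0.10) also overlapped. In HIST3, HIST3H2A was at 23.6, 15.8 and 12.8 CPM in the knockout, against 14.9, 14.6 and 17.4 CPM in wildtype (0.15, SE 0.20). HIST3H2BB was at 53.6, 36.0 and 32.7 CPM in the knockout, against 43.9, 33.0 and 46.3 CPM in wildtype (-0.01, SE 0.19). HIST4H4, the lone H4 gene on chromosome 12, was at 33.0, 23.1 and 26.3 CPM in the knockout, against 32.2, 32.5 and 28.7 CPM in wildtype (-0.18, SE 0.14, adjusted p = 0.558 in edgeR). Knockout replicate 1 was the highest knockout library for each of these 3 genes.

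Several HIST2 genes have near-identical copies whose reads cannot be assigned with certainty. HIST2H3A and HIST2H3C had identical counts in all 6 libraries (218, 143 and 138 CPM in the knockout, against 148, 122 and 177 CPM in wildtype), which makes their separate values uncertain. Of all symbols with at least 100 counts, 22 in 11 sets shared their 6 counts with another symbol. With copies summed, the log2 fold change was 0.06 (SE 0.16) for HIST2H2AA3 with HIST2H2AA4, 0.18 (SE 0.19) for HIST2H3A, HIST2H3C and HIST2H3D, and 0.04 (SE 0.15) for HIST2H4A with HIST2H4B, and none passed the test in edgeR (adjusted p of 0.891, 0.693 and 0.923). Apart, HIST2H2AA4 (0.21, SE 0.32), HIST2H3D (0.23, SE 0.18) and HIST2H4B (0.11, SE 0.13) overlapped too.

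The coding members fell into an expressed and a near-silent set. Of 71, 48 had a mean over the 6 libraries between 16.5 CPM (HIST3H2A) and 903 CPM (HIST1H1C), and 23 had a mean of 2.38 CPM (HIST1H1T) or less, with none between. No count at all was found for HIST1H4F, HIST1H4G, HIST1H4K or HIST1H1B. The promoter window of HIST1H4K differs at few bases from that of HIST1H4J, which had a mean of 96.9 CPM. How reads of near-identical copies were counted is not given, so the lack of counts for HIST1H4K, which is among the 23, is not read as silence. The same limit holds for any other low member with a near-identical copy. Another 15 had between 1 and 59 counts summed over the 6 libraries, which is too few to show a difference. Per kilobase of RefSeq gene span, over 62 members with a span under 1000 nt, the highest levels were those of HIST1H1C (1430 CPM per kb in the knockout and 1040 in wildtype), HIST2H4A (1170 and 1158) and HIST1H4C (1224 and 958). Genes with no count were interspersed with expressed ones along HIST1: HIST1H4F and HIST1H4G, at no count, lie between HIST1H1D and HIST1H3G.

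**Figure D4:**
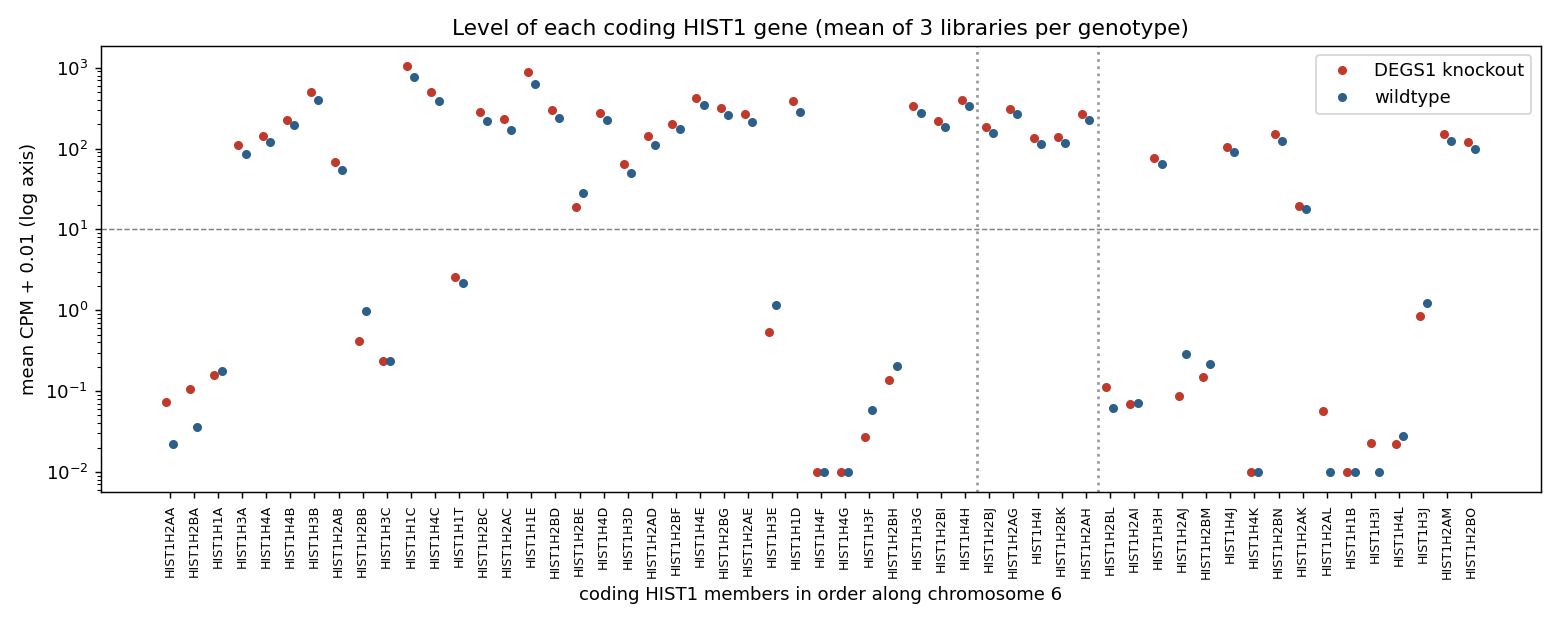
Mean CPM of each coding HIST1 member in gene order on chromosome 6, on a log axis after adding 0.01, DEGS1 knockout left of wildtype, with the 10 CPM split as a dashed line and gaps between the 3 stretches as dotted lines. The values are not divided by gene length, and each gene falls on the same side of the split in both genotypes.

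Of the 23 low coding members, 4 passed the filter, none passed the test, and 3 of the 4 estimates were negative. HIST1H3E, an H3 gene, was at 0.821, 0.459 and 0.292 CPM in the knockout, against 1.101, 1.00 and 1.39 CPM in wildtype (log2 fold change -1.18, SE 0.42, adjusted p = 0.174 in edgeR), without overlap. HIST1H2BB, an H2B gene, was at 0.667, 0.268 and 0.292 CPM in the knockout, against 0.904, 1.34 and 0.643 CPM in wildtype (-1.29, SE 0.47, adjusted p = 0.179 in edgeR). HIST1H3J was at 1.18, 0.497 and 0.838 CPM in the knockout, against 1.26, 1.49 and 0.964 CPM in wildtype (-0.59, SE 0.39). A low gene passes the filter only where it is high in enough libraries, so this count of 4 is not read further.

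Among the other testis members, HIST1H2AA, HIST1H2BA and HIST3H3 stayed at 0.191 CPM or less in every knockout library and at 0.157 CPM or less in every wildtype library. The 6 tested pseudogene rows were divided, 3 positive and 3 negative. HIST2H2BC was at 0.975, 0.765 and 0.802 CPM in the knockout, against 1.34, 1.89 and 1.12 CPM in wildtype (-0.79, SE 0.34, adjusted p = 0.265 in edgeR). HIST2H2BD (1.13, SE 0.89), HIST2H2BA (-0.11, SE 0.33) and HIST3H2BA (-0.17, SE 0.19) overlapped.

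A list of 5 members with a known polyadenylated transcript, which need not be complete, had positive estimates throughout. Their median was 0.35, and for 4 all knockout libraries lay above all wildtype libraries, beside 9.24% of all genes. They are HIST1H1C, HIST1H2AC and HIST1H2BD, given above, HIST1H2BK (143, 145 and 126 CPM in the knockout, against 116, 123 and 113 CPM in wildtype; 0.24, SE 0.11) and HIST2H2BE. None passed the test. The 4 separated genes lie in HIST1, where 19 of 34 coding members at 10 CPM or more were separated upward, with a median of 0.29. The values of the list are therefore not read as a trait of polyadenylated members.

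Few genes that make, process, degrade or carry histone mRNA and protein passed the test. Of 18 factors of histone transcription and 3′ end processing, none was called, 4 were under an unadjusted p of 0.05 and the median log2 fold change was 0.02. At that unadjusted p in edgeR, 6.69% of all genes were higher and 9.81% lower. Without wildtype replicate 2, edgeR called 6 of the 18, beside 10.6% of all genes called higher and 11.5% called lower in that fit. SLBP was at 147, 160 and 149 CPM in the knockout, against 135, 187 and 123 CPM in wildtype (0.04, SE 0.15, adjusted p = 0.931 in edgeR). NPAT, the coactivator of histone gene transcription, was at 78.2, 93.5 and 79.3 CPM in the knockout, against 79.3, 92.3 and 77.3 CPM in wildtype (0.01, SE 0.12, adjusted p = 0.971 in edgeR). Both overlapped. CRAMP1 had the smallest p of the list (22.6 ± 1.53 CPM in the knockout and 32.3 ± 7.02 CPM in wildtype, SD, n = 3 each; -0.52, SE 0.16, adjusted p = 0.104 in edgeR).

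Of 10 decay factors none was called by edgeR or was under an unadjusted p of 0.05, and the smallest p was that of DIS3 (-0.27, SE 0.13, adjusted p = 0.327 in edgeR). Without wildtype replicate 2, edgeR called 3 of the 10, beside the same 10.6% and 11.5% of all genes. Of 22 chaperones and import factors, 1 was called, beside 1.51% of all genes called higher and 2.95% called lower. It was CABIN1, a subunit of the HIRA complex, which fell (-0.54, SE 0.14, adjusted p = 0.0474 in edgeR). CABIN1 was at 38.0, 37.9 and 40.3 CPM in the knockout, against 57.5, 45.1 and 66.3 CPM in wildtype. That call was lost in 11 of 18 alternatives, among them the fits without any 1 library other than wildtype replicate 2 (adjusted p of 0.147 to 0.179 in edgeR).

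Of 12 replication-independent histone variant genes, which are transcribed outside S phase as well, 10 were tested and 1 was called. The shares of all genes were 1.51% called higher and 2.95% called lower. H1FX, which encodes the linker histone H1.10, rose to 60.6, 58.2 and 68.4 CPM in the knockout, against 42.7, 45.6 and 48.0 CPM in wildtype (log2 fold change 0.46, SE 0.11, adjusted p = 0.0335 in edgeR), and the genotypes did not overlap. The call was lost in 6 of 18 alternatives, among them the fits without wildtype replicate 1 (adjusted p = 0.211 in edgeR), DEGS1 knockout replicate 1 (0.0921) or DEGS1 knockout replicate 3 (0.208). The median of the 10 was 0.11.

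Cell cycle genes were measured beside the histone genes, since histone mRNA is made in S phase. Of 40 S phase and replication genes none was called, 5 were under an unadjusted p of 0.05 in edgeR, 30 were positive, and the median log2 fold change was 0.06. Their summed level was 6541 to 7204 CPM in the knockout and 5974 to 7457 CPM in wildtype. At that unadjusted p, 6.69% of all tested genes were higher and 9.81% lower, and 47.3% of all had a positive estimate. Without wildtype replicate 2, edgeR called 9 of the 40, beside 10.6% of all genes called higher and 11.5% called lower. The smallest p was that of DTL, at 138, 151 and 138 CPM in the knockout, against 177, 203 and 161 CPM in wildtype (-0.34, SE 0.12, adjusted p = 0.175 in edgeR).

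Of 30 G2 and mitosis genes none was called, 2 were under an unadjusted p of 0.05 in edgeR, 23 were positive, and the median was 0.13. The shares over all genes were the same 6.69% higher and 9.81% lower at that p, with 47.3% positive. Without wildtype replicate 2, edgeR called 10 of the 30, beside 10.6% and 11.5% of all genes. CDC25C was at 33.1, 33.8 and 39.7 CPM in the knockout, against 26.1, 28.4 and 27.4 CPM in wildtype (0.38, SE 0.11, adjusted p = 0.094 in edgeR). DESeq2 and limma voom called none of the processing, decay, S phase or G2 and mitosis genes. In other edgeR settings over all libraries, 1 S phase gene was called with upper-quartile scaling and 1 with library size only, 1 processing factor without a filter, and 1 G2 and mitosis gene with length and GC trends removed. The part of the cell cycle in the histone values was not tested.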

How the data were processed

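RNA was measured in 3 DEGS1 knockout and 3 wildtype libraries of HAP1 cells. Per the labels' protocols, 1 µg of Trizol-extracted RNA entered a stranded kit for total RNA, and reads of 75 nt were taken from 1 end. The authors deposited raw counts per symbol. The submitters' processing notes name bcl2fastq 2.20 and hg19. The aligner, counter, annotation and strand setting were not given in the sources used here.

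Genes were filtered by expression with genotype as group and tested with edgeR 4.0.16 (R 4.3.3; trimmed mean of M values scaling, robust quasi-likelihood F test, genotype only, Benjamini-Hochberg over all 16954 tested genes, called under 0.05). SE was taken as |log2 fold change| / √F, and CPM uses the scaled library sizes. Sums, ratios and medians were described without a test. The script was tested on simulated data. Libraries of a group differed beyond sampling noise (chi-square over its degrees of freedom 12.8 to 53). Floors cover counting error only. Names, gene order, spans and stem-loops came from GENCODE 29 (GRCh38) and promoters from RefSeq (GRCh38.p14); 74 of 89 members matched a gene ID. No files' coordinates are given, since the build differs.

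The genes named with values were DEGS1; each called member; the 3 most abundant members and the smallest p of each class; all tested HIST2, HIST3 and HIST4 members; polyadenylated and testis members; and up to 3 called genes, or the smallest p, of each other list. SLBP, NPAT, and the HIST1 neighbours and low members given beside these were chosen after their values were seen. The members and the lists were chosen with earlier results of these data known. Alternatives were DESeq2 1.42.0 size factors and Wald test, upper-quartile scaling, library size only, limma 3.58.1 voom, no filter, at least 1 CPM in 3 libraries, a block for replicate number, removal of length and GC trends or of chromosome medians, summed HIST2 copies, a threshold of 0.01 and each library left out.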

Additional observations from a re-analysis of the deposited data

How the results depend on the processing

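The median log2 fold change of tested members stayed positive under every alternative run, between 0.17 and 0.33. With at most 1 library left out, the summed ratios moved by less than the spread between replicates. With all 6 libraries 0 members were called higher and 1 lower; upper-quartile scaling called 1 higher, library size only 2, the DESeq2 Wald test 3 and the 1 CPM filter 1. Leaving out 1 library gave 0 to 15 called higher and 0 to 2 called lower, and a threshold of 0.01 gave 0 lower. Without DEGS1 knockout replicate 1 and wildtype replicate 2, chosen after seeing the data, 9 were higher and 4 lower. In the other lists, with 2 called higher and 3 lower over all libraries, 1 was higher with library size only and with chromosome medians removed, 5 were lower without a filter, and the threshold of 0.01 gave 1 and 1. Leaving out 1 library gave 1 to 27 higher and 1 to 15 lower there, and leaving out that pair gave 39 and 14. These counts stand beside shares of all genes that moved as well. With all 6 libraries edgeR called 1.51% of all genes higher and 2.95% lower, and DESeq2 called 2.27% higher. The edgeR shares were 10.6% and 11.5% without wildtype replicate 2, and 12.8% and 11.8% without that pair. HIST2 and HIST3 ratios of sums changed sign with some single libraries left out. They lay between -0.07 and 0.20 for HIST2 and between -0.18 and 0.15 for HIST3 on the log2 scale. Without both DEGS1 knockout replicate 1 and wildtype replicate 2, the median of the 11 HIST2 coding members at 10 CPM or more was -0.13. The cause of these changes was not tested. HIST2H3A counted once with HIST2H3C, also chosen after seeing the data, moved the H3 ratio to 0.28 and the HIST2 ratio to 0.07 (log2).

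With the replicate number as a block, 3 members were called higher (HIST1H1D, HIST1H1E and HIST1H3D) and 1 lower. Deviations of same-numbered libraries correlated at 0.257, 0.408 and -0.23 for numbers 1, 2 and 3 over 10461 genes, so the numbers were not taken as pairs, and not every library correlated best with its own number. A floor of 3 counts limits what can be said of the 23 low coding members.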
